A study of Mus musculus with 8 samples.

Results

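The genes described here encode the proteins that bring iron into a cell, hold it in store and let it out: Tfrc, Tfr2, Steap3 and Slc11a2 for uptake, Fth1, Ftl1 and Ncoa4 for storage, Slc40a1 for export, and Ireb2 and Aco1 for control. They were taken by symbol from the platform annotation, and all 10 were found among the 19505 named genes of the arrays, each with 1 probe set. They were measured in mouse hematopoietic stem cells, sorted from the bone marrow of animals aged 6 to 10 weeks as cells without lineage markers or CD48 and with c-Kit, Sca-1 and CD150 on the surface. The sorted cells were kept for 16 h in medium with stem cell factor at 100 ng/ml. The eltrombopag group received the drug at 10 µg/ml, and the vehicle group received sterile water. Each group held 4 arrays with replicate numbers 1 to 4, and strain, sex and any pooling of animals were not given in the labels. The numbers are named biological replicates, but their animals are not described, so the p-values cover only the spread among these arrays. Values are log2 array values, and a difference is eltrombopag minus vehicle on that scale.

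Iron travels in blood bound to transferrin, which the transferrin receptor Tfrc carries into endosomes, where Steap3 reduces the iron and Slc11a2 passes it to the cytosol. Inside the cell, iron is either used, stored in ferritin or exported through ferroportin, the product of Slc40a1. The iron regulatory proteins Aco1 and Ireb2 bind hairpins called iron-responsive elements when iron is short, which protects the Tfrc transcript from decay and blocks translation of the ferritins and ferroportin. Eltrombopag, a drug given to raise platelet counts, also chelates iron. The comparison asks how the transcripts of mouse stem cells stand after exposure to it.

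Markers of the sorted cell type were read first. Kit, the receptor for stem cell factor, had a log2 value of 12.88 with eltrombopag and 12.89 with vehicle, and Hlf, a transcription factor of stem cells, had 11.43 with eltrombopag and 11.54 with vehicle (means, n = 4 each). Of 11 measured stem cell markers 10 lay above the median of all gene means, which was 6.79. Slamf1, which encodes CD150, lay close to it at 7.07 with eltrombopag (arrays from 6.19 to 7.75) and 7.01 with vehicle (6.56 to 7.24). Ly6a, which encodes Sca-1, was not among the measured genes. Cd48, absent from the surface by the sort, lay below the median at 6.21 with eltrombopag (arrays from 5.66 to 6.55) and 5.96 with vehicle (5.79 to 6.27). In eltrombopag array 1 Slamf1, at 6.19, stood below Cd48, at 6.55, and in every other array Slamf1 was the higher. Of 8 measured markers listed as sorted out, 1 lay above it, Ptprc, at 10.25 with eltrombopag and 10.15 with vehicle. Ptprc is made by blood cells in general, stem cells among them. Only a splice form of it marks B cells, and the values do not separate its forms. All 10 iron genes lay above that median, Tfrc close to it at 7.01 in both groups. Pearson correlations between arrays ran from 0.987 to 0.993 across genes. The first principal component, with 25.5% of the variance, set the arrays numbered 3 and 4 of both groups apart from those numbered 1 and 2.

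None of the 10 iron genes passed the test between eltrombopag and vehicle. The test was limma over all genes with group as the only term, a gene was called at a Benjamini-Hochberg adjusted p under 0.05, and the share called among all 19505 genes was 0%. The adjusted p in limma was 0.99978 for every one of the 10. At an unadjusted p under 0.05 stood 1 of the 10, Slc11a2, where the share over all genes was 3.33%. The differences were positive for 5 genes and negative for 5, with a median of -0.00020, against 0.0071 over all genes. Their median size without regard to sign was 0.074, against 0.083 over all genes. The 95% interval of the difference lay within 1.5-fold either way for 7 of the 10 (88.0% of all genes) and within 2-fold for all 10 (98.7% of all genes). The 3 whose intervals reached past 1.5-fold were Slc11a2, Slc40a1 and Ireb2. All these values are from the fit that leaves out the replicate number. With the number as a block, given further below, 0 of the 10 were called too. In bulk RNA a smaller number of cells of one kind and less RNA in each such cell cannot be told apart.

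**Figure D1:**
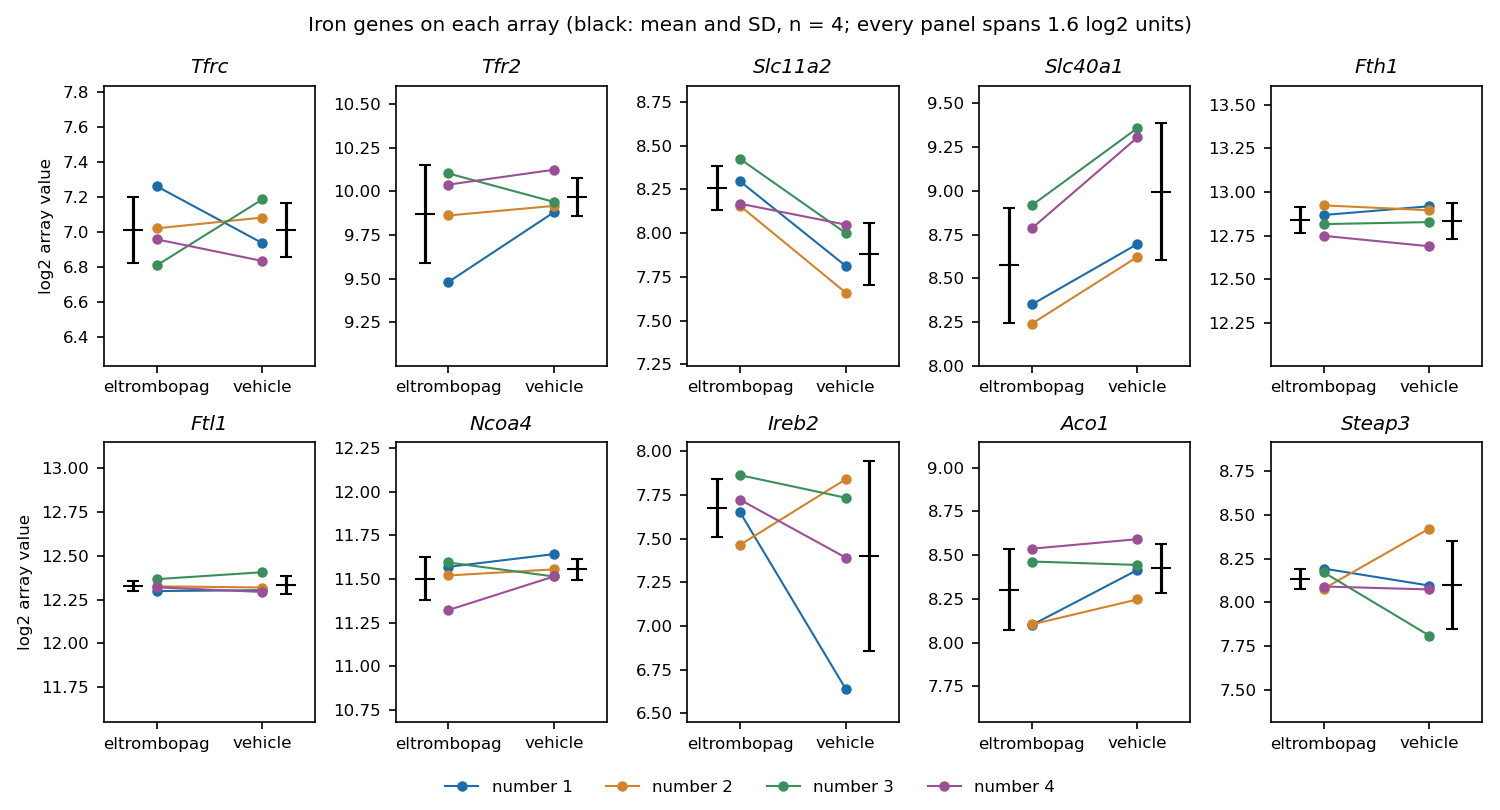
Log2 array value (y axis) of each of the 10 iron genes in the eltrombopag and vehicle groups (x axis). Points are arrays, a line joins arrays of the same number, and the black marks are the mean and SD of 4 arrays. Slc11a2 is the gene whose groups do not overlap, and the lines of Slc40a1 run in parallel.

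Uptake begins at the cell surface. Tfrc, the receptor that brings in transferrin-bound iron, had log2 values of 7.26, 7.02, 6.81 and 6.96 in eltrombopag arrays 1 to 4, against 6.93, 7.08, 7.18 and 6.83 in vehicle arrays 1 to 4. The groups overlapped throughout, and array 1 was the highest of the eltrombopag arrays while array 3 was the highest of the vehicle arrays. The difference between arrays of a number ran from -0.38 for number 3 to 0.33 for number 1. The mean difference was 0.0024 (SE 0.12), and its 95% interval covers folds from 0.830 to 1.21. Its sign turned under other scalings of the arrays, so it has no direction.

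Tfr2, a second transferrin receptor that senses iron-loaded transferrin and is made by liver and erythroid cells, had 9.48, 9.86, 10.10 and 10.04 in eltrombopag arrays 1 to 4, against 9.88, 9.92, 9.94 and 10.12 in vehicle arrays 1 to 4. Eltrombopag array 1 was the lowest of the 8. The difference was -0.094 (SE 0.14), and without eltrombopag array 1 it was 0.036. Steap3, the endosomal ferrireductase, had values between 8.08 and 8.19 with eltrombopag and between 7.81 and 8.42 with vehicle. Its difference was 0.033 (SE 0.13), with pairs on either side of 0.

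Slc11a2 encodes DMT1, the carrier that moves ferrous iron out of the endosome. It had log2 values of 8.30, 8.16, 8.42 and 8.17 in eltrombopag arrays 1 to 4, against 7.81, 7.66, 8.001 and 8.05 in vehicle arrays 1 to 4. The lowest eltrombopag array lay above the highest vehicle array, so the groups did not overlap. This was so for 1 of the 10 iron genes, and over all genes the eltrombopag arrays lay wholly above or wholly below the vehicle arrays in 2.12%. The difference was 0.48 in number 1, 0.50 in number 2, 0.42 in number 3 and 0.12 in number 4. The mean difference was 0.38 (SE 0.12), which is 1.30-fold with a 95% interval from 1.09 to 1.55. Its unadjusted p was 0.00758, the 88th smallest of 19505, and it did not pass (adjusted p 0.99978 in limma). Across all genes 363 had a larger difference in either direction. Within numbers 1 and 2 the difference was 0.49 and within numbers 3 and 4 it was 0.27. The Slc11a2 transcript is made with and without an iron-responsive element at its 3' end, and the deposited values do not separate these forms.

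The exporter showed the opposite sign. Slc40a1, ferroportin, the only known exporter of iron ions from mammalian cells, had 8.35, 8.24, 8.92 and 8.79 in eltrombopag arrays 1 to 4, against 8.70, 8.62, 9.36 and 9.31 in vehicle arrays 1 to 4. In each number the eltrombopag array lay below its vehicle array, but the groups as a whole overlapped. The differences were -0.35, -0.38, -0.44 and -0.52 in numbers 1 to 4. Both Slc40a1 and Slc11a2 had 1 direction in all 4 numbers, which held for 2 of the 10 iron genes and for 12.6% of all genes. The mean difference of Slc40a1 was -0.42 (SE 0.21), which is 0.746-fold with a 95% interval from 0.541 to 1.03, and 245 genes had a larger difference in either direction. Its unadjusted p was 0.0698.

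Most of the spread of Slc40a1 lay between numbers and not between arrays of a number. With the replicate number as a block the SE of its difference was 0.088 in place of 0.21, the 95% interval ran from -0.63 to -0.22, and the unadjusted p was 0.00180. It did not pass in that fit either (adjusted p 0.984 in limma). With the block 0 of the 10 iron genes and 0% of all genes were called, and an unadjusted p under 0.05 was found for 2 of the 10, Slc40a1 and Slc11a2 (0.00694), and for 4.63% of all genes. Within numbers 1 and 2 alone the Slc40a1 difference was -0.36, and within numbers 3 and 4 alone it was -0.48.

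**Figure D2:**
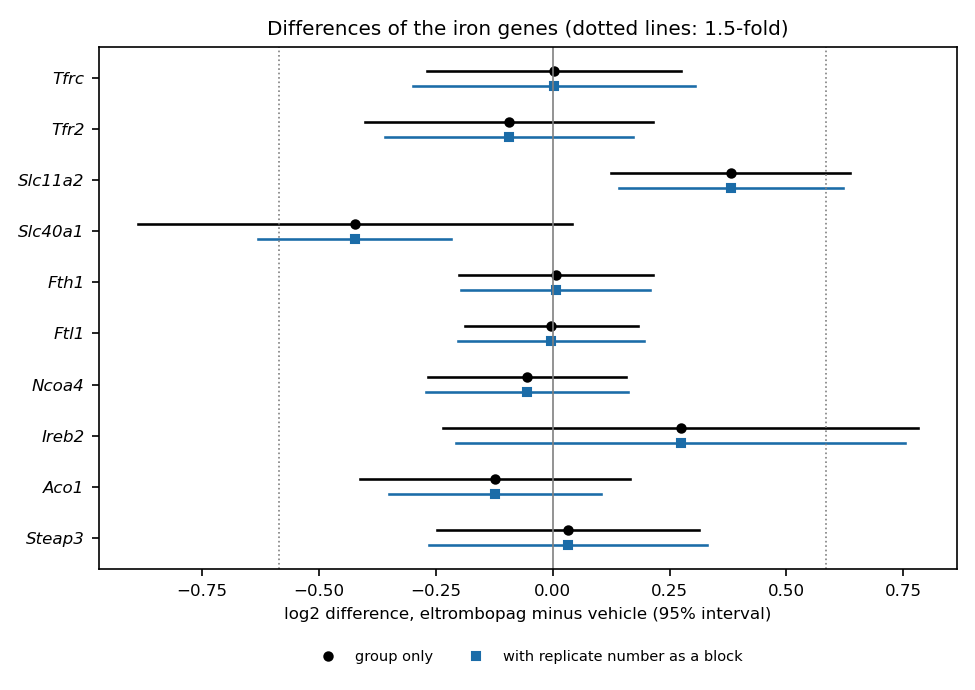
Log2 difference, eltrombopag minus vehicle, with its 95% interval (x axis) for each of the 10 iron genes (y axis), from the fit with group only (black) and with the replicate number as a block (blue). Dotted lines mark 1.5-fold, and the interval of Slc40a1 is narrower with the block and lies below 0.

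Macrophages that recycle red cells are known for high ferroportin, so their genes were read beside it. Of 15 measured macrophage and monocyte markers, 7 were higher and 8 lower with eltrombopag, with a median difference of -0.0073, and 0 passed. Their mean level per array ran from 5.82 to 6.00 with eltrombopag and from 5.80 to 6.02 with vehicle. Of the 15, 5 lay below the lower quartile of gene means, 5.05, among them the complement gene C1qa at 4.49 with eltrombopag and 4.56 with vehicle. Above the median of gene means lay 3, which were Csf1r at 8.82 with eltrombopag and 8.81 with vehicle, Lyz2 at 7.85 with eltrombopag and 7.88 with vehicle, and Cd14 at 6.97 with eltrombopag and 7.23 with vehicle. Spic, a transcription factor of iron-recycling macrophages, had 6.65 with eltrombopag and 6.77 with vehicle. The part of such cells in the Slc40a1 values was not tested.

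The ferritin transcripts hardly differed. Fth1, the heavy chain with the iron-oxidising site, had 12.87, 12.92, 12.82 and 12.75 in eltrombopag arrays 1 to 4, against 12.92, 12.90, 12.83 and 12.69 in vehicle arrays 1 to 4. Ftl1, the light chain on which the mineral core forms, had 12.30, 12.33, 12.37 and 12.32 in eltrombopag arrays 1 to 4, against 12.30, 12.32, 12.41 and 12.29 in vehicle arrays 1 to 4. Arrays of the same number lay within 0.060 of each other for Fth1 and within 0.040 for Ftl1. The 95% intervals covered folds from 0.870 to 1.16 for Fth1 and from 0.878 to 1.13 for Ftl1. Neither difference, 0.0065 for Fth1 and -0.0028 for Ftl1, kept its sign under other scalings. Both genes have processed copies in the genome, and how far the probes also read these is not known here. Ferritin is set largely by translation, and no protein was measured.

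Ncoa4, the receptor that delivers ferritin to lysosomes so that its iron is released, had values between 11.32 and 11.59 with eltrombopag and between 11.51 and 11.64 with vehicle. Its difference was -0.055 (SE 0.096). Eltrombopag array 4 was the lowest of the 8 at 11.32, and without it the difference was 0.0048.

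Of the iron regulatory proteins, Ireb2 encodes IRP2, which is degraded when iron is plentiful. Its transcript had 7.65, 7.46, 7.86 and 7.72 in eltrombopag arrays 1 to 4, against 6.64, 7.84, 7.73 and 7.39 in vehicle arrays 1 to 4. Vehicle array 1 stood lowest, and the groups overlapped. The difference was 0.27 (SE 0.23), the largest after Slc40a1 and Slc11a2 among the 10, but without vehicle array 1 it was 0.020. Number 1 alone had a difference of 1.01, and number 2 had -0.38. Aco1 encodes IRP1, which is a cytosolic aconitase while it holds an iron-sulfur cluster. It had 8.10, 8.10, 8.46 and 8.54 in eltrombopag arrays 1 to 4, against 8.42, 8.25, 8.44 and 8.59 in vehicle arrays 1 to 4. Its difference was -0.12 (SE 0.13), negative in 3 of 4 numbers, and the largest gap was in number 1 at -0.32. The difference was -0.057 without eltrombopag array 1, -0.058 without eltrombopag array 2, -0.068 without vehicle array 4 and -0.20 without eltrombopag array 4.

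The replicate number was then tested as a term of its own, with the moderated F test of limma on the fit with group and number. It called 0 of the 10 iron genes and 41 of all genes (0.210%). An unadjusted p under 0.05 was found for 1 of the 10 and for 10.2% of all genes. That gene was Slc40a1, with a mean over both groups of 8.52 in number 1, 8.43 in number 2, 9.14 in number 3 and 9.05 in number 4. Its unadjusted p was 0.00128 and its adjusted p 0.180 in limma, with adjusted p-values from 0.0531 to 0.460 over 8 other settings. All arrays numbered 3 and 4 lay above all arrays numbered 1 and 2. Numbers 3 and 4 had a mean higher by 0.61, where eltrombopag and vehicle differed by -0.42. These sets of numbers, chosen after the principal component was seen, also stood apart for Aco1 and Tfr2, higher in numbers 3 and 4, and for Fth1, lower there, which makes 4 of the 10 and 7.24% of all genes. Aco1 had 8.26, 8.18, 8.45 and 8.56 in numbers 1 to 4, and Tfr2 had 9.68, 9.89, 10.02 and 10.08, without passing (adjusted p 0.528 for Aco1 and 0.596 for Tfr2 in limma). Tfrc had 7.10, 7.05, 6.996 and 6.89, and its values in numbers 1 and 2 overlapped those in numbers 3 and 4 (adjusted p 0.889 in limma). Beside Slc40a1, 0 of the 15 macrophage and monocyte markers passed across numbers and 4 had an unadjusted p under 0.05. They were Lyz2 (0.00748), Cd14 (0.00643), Mpeg1 (0.0227) and Spic (0.0412). Lyz2, the lysozyme of myeloid cells, had 7.57, 7.53, 8.23 and 8.06 in eltrombopag arrays 1 to 4, against 7.90, 7.42, 8.22 and 7.96 in vehicle arrays 1 to 4, so it too was higher in numbers 3 and 4 than in numbers 1 and 2. Spic ran the other way and was lower in numbers 3 and 4. It had 7.50, 7.49, 6.40 and 5.21 in eltrombopag arrays 1 to 4, against 7.15, 7.09, 6.06 and 6.77 in vehicle arrays 1 to 4.

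**Figure D3:**
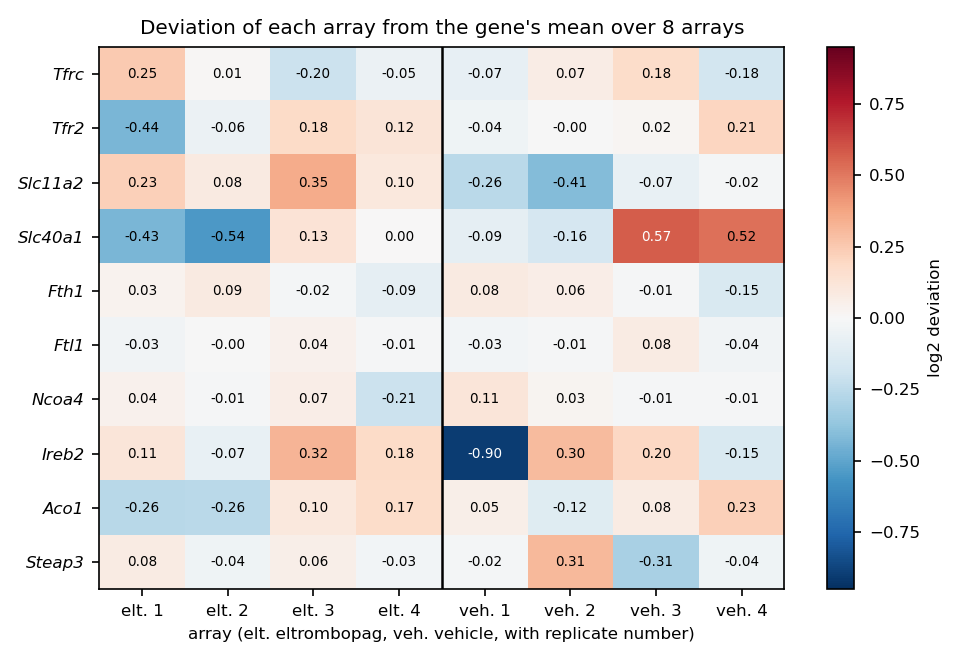
Log2 deviation of each array (columns, eltrombopag 1 to 4 left and vehicle 1 to 4 right) from the mean of the gene over 8 arrays (rows, the 10 iron genes). Slc40a1 is high in vehicle arrays 3 and 4 and low in eltrombopag arrays 1 and 2, Ireb2 has its lowest value in vehicle array 1, and the ferritin rows are nearly flat.

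Erythroid cells take up much iron and are known for Tfrc, Tfr2 and Alas2, so their markers were read beside these genes. Of 12 measured erythroid markers 9 were higher (52.3% of all genes) and 3 lower with eltrombopag, with a median difference of 0.13. Between the groups 0 of the 12 passed. Their mean level per array ran from 6.94 to 7.59 with eltrombopag and from 6.96 to 7.23 with vehicle, and eltrombopag array 3 was the highest. In number 3, 11 of the 12 were higher with eltrombopag, against 8, 7 and 6 in numbers 1, 2 and 4. Of the 12 markers 1 passed across numbers, Epb42, a red cell membrane protein (adjusted p 0.0416 in limma), where the share over all genes was 0.210%. An unadjusted p under 0.05 across numbers was found for 4 of the 12, where the share over all genes was 10.2%. Alas2 was among both the 12 and the 4. Tfrc had its lowest value of all 8 arrays in eltrombopag array 3, where these markers were highest. Stem cell markers averaged lowest in both arrays numbered 1, with a deviation from their overall mean of -0.23 with eltrombopag and -0.16 with vehicle. The part of either marker list in the values of the iron genes was not tested.

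Among themselves the iron genes followed each other in part from array to array. After each group mean was taken off, the Pearson correlation over the 8 arrays was highest for Slc40a1 with Aco1 (0.83), Tfr2 with Aco1 (0.79) and Slc11a2 with Slc40a1 (0.78). It was lowest for Tfrc with Tfr2 (-0.83), Slc40a1 with Fth1 (-0.81) and Fth1 with Aco1 (-0.81). These correlations share the arrays and their numbers, and 8 arrays give many high values. Slc11a2 and Slc40a1 thus lay on opposite sides between eltrombopag and vehicle, yet tended to be high or low in the same arrays within a group.

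The genes most like a member across the 8 arrays, with group means taken off, were also listed. For Slc40a1 they were Hnrnph1, an RNA-binding protein (0.99), Aldh1a1, a retinaldehyde dehydrogenase (0.99), and Hlf (0.99), and 177 genes had a correlation over 0.9. For Tfrc they were Slc22a20 (0.98), Olfr1036 (0.98) and Olfr132 (0.98), with 41 genes over 0.9. For Slc11a2 they were Rgl2 (0.98), Olfr119 (0.97) and Dpy19l2 (0.96), with 63 genes over 0.9. Olfr genes encode odorant receptors.

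The wider iron system held 71 further measured genes, from 78 listed. None passed (0% of all genes), and 2 of the 71 had an unadjusted p under 0.05, where the share over all genes was 3.33%. The groups did not overlap for 2 of the 71, where the share over all genes was 2.12%. In all, 42 were higher and 29 lower with eltrombopag, where 52.3% of all genes were higher. The 71 had a median difference of 0.023 and a median size of 0.082, against 0.0071 and 0.083 over all genes. From each list, the 3 genes with the smallest p are named below for that reason.

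Other carriers of iron and heme were higher with eltrombopag in 11 of 16 cases, with a median difference of 0.047. Slc22a17, the receptor for lipocalin that takes up siderophore-bound iron, had 9.11, 9.34, 9.03 and 9.17 in eltrombopag arrays 1 to 4, against 8.69, 8.995, 8.66 and 8.91 in vehicle arrays 1 to 4. The groups did not overlap, as for 2.12% of all genes, and its difference was 0.35 (SE 0.11), with an unadjusted p of 0.0107 in limma. Slc25a28, mitoferrin-2, which brings iron into mitochondria, differed by 0.21 (SE 0.12), and Scara5, a receptor for serum ferritin, by 0.20 (SE 0.13), at a level below the lower quartile in both groups.

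Oxidoreductases, chaperones and iron-binding proteins were higher in 6 of 15 cases (median -0.032). The ferroxidase Heph differed by 0.14 (SE 0.14), the iron-sulfur chaperone Bola2 by 0.11 (SE 0.090) and mitochondrial ferritin Ftmt by 0.13 (SE 0.11), with Heph and Ftmt below the lower quartile. Genes of systemic iron hormones and BMP signalling were higher in 9 of 11 cases (median 0.080), where 52.3% of all genes were higher. Of the 11, 4 lay above the median of gene means and 3 below the lower quartile. Hepcidin, Hamp, the hormone that removes ferroportin from the membrane, differed by 0.20 (SE 0.12), the protease gene Tmprss6 by 0.20 (SE 0.14) and the erythroid hormone Erfe by 0.26 (SE 0.16). Erfe had 0.91 in number 1 and at most 0.068 in the others.

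Genes for turnover of the iron regulatory proteins and for ferritin breakdown were higher in 7 of 11 cases (median 0.024). Atg5, which is needed to build the autophagosome, had 9.73, 9.57, 9.81 and 9.66 in eltrombopag arrays 1 to 4, against 9.33, 9.36, 9.42 and 9.31 in vehicle arrays 1 to 4. The groups did not overlap, as for 2.12% of all genes. The Atg5 difference was 0.34 (SE 0.090), and its unadjusted p of 0.00359 did not pass (adjusted p 0.99978 in limma). Fbxl5, the iron-sensing ligase subunit that marks Ireb2 protein for degradation, differed by 0.35 (SE 0.17), but by 1.05 in number 2 and by -0.053 in number 4. Atg9a, which supplies membrane to the autophagosome, differed by 0.23 (SE 0.14).

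Genes of the endosome cycle that carries transferrin were higher in 5 of 12 cases (median -0.011). Exoc6, part of the exocyst that returns the receptor to the surface, differed by -0.23 (SE 0.19), and vehicle array 4 was the highest at 7.15, without which the difference was -0.011. Rab12, which directs Tfrc to degradation, differed by -0.21 (SE 0.25), and the value was -0.016 without vehicle array 3 and -0.46 without vehicle array 2. Rab5a, of early endosomes, differed by -0.073 (SE 0.090). Other transcripts described to hold an iron-responsive element were higher in 4 of 6 cases (median 0.0098). Pfn2, an actin regulator, differed by 0.27 (SE 0.14), the phosphatase gene Cdc14a by 0.18 (SE 0.11) and Epas1, the hypoxia factor HIF-2 alpha, by -0.035 (SE 0.14).

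**Figure D4:**
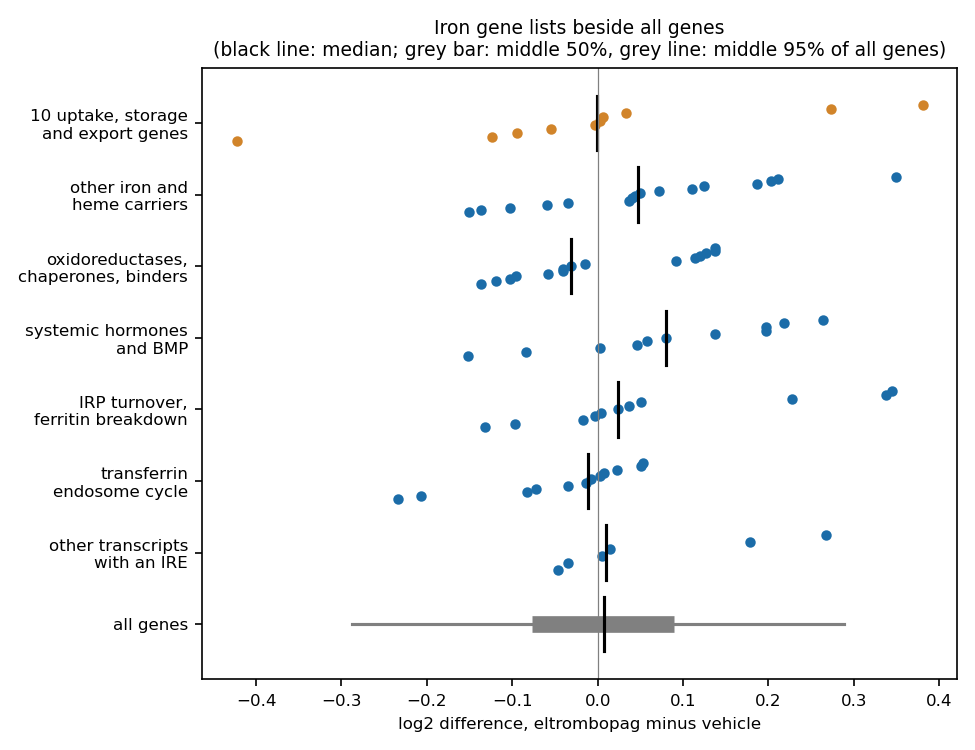
Log2 difference, eltrombopag minus vehicle (x axis), of every measured gene in 7 iron lists (y axis, points) with the median of each list (black line), beside the middle 50% and 95% of all 19505 genes (grey). The middle 95% of all genes runs from -0.29 to 0.29, and Slc40a1 and Slc11a2 are the outermost points of the top row.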

How the data were processed

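Amplification and biotin labelling from around 10 ng of RNA used a kit of the 3' in vitro transcription type, per the labels' protocols. The authors deposited log2 values, 1 per probe set and array, and per the submitters' processing notes the tools were RMA, oligo and limma, without versions. RMA equalises the distributions of the arrays, which removes global differences in RNA. No genome build is named by the sources used here.

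Of 22206 probe sets, 19572 had 1 gene symbol, 0 had several and 2634 were unnamed here. The probe set with the highest mean stood for each of 19505 genes, with no filter on dim genes. Groups and numbers came from the titles. Differences were tested with limma 3.58.1 in R 4.3.3 (two-sided, Benjamini-Hochberg over all genes), and the scripts were tested on simulated data. Precision is limited by the 4 arrays per group, and signal over background was not used here. The genes and lists were chosen with earlier results of these data known. The text names all 10 members, the 3 genes of smallest p per list, and the 3 genes most like Tfrc, Slc11a2 and Slc40a1. Markers are named where their values stand beside a result.

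Whether a number pairs the arrays was checked by the correlation, over probe sets, of deviations from the group means. It was 0.142 to 0.294 for the 4 same-number pairs, all over 0.1, and -0.208 to 0.171 for the other 12. Of the 12, vehicle 4 with eltrombopag 3 (0.171) and vehicle 3 with eltrombopag 4 (0.168) exceeded the pair of number 4 (0.142). The check thus does not tell number 3 from number 4. For the fits with a block the numbers were taken as pairs, from the data and not from the labels. The alternatives were the number as a fixed or random block, other scalings, array weights, another moderation, a filter on dim genes, and arrays left out. No sequences are printed.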

Additional observations from a re-analysis of the deposited data

Results flagged for a closer look

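In 56 groups of 4 arrays, which were 28 named iron genes in 2 groups each, an array was sought whose gap to the nearest other array took more of the range of its group than Dixon's 95% critical value allows. None did, where chance would give about 2.8, at 1 group in 20. The largest share was 0.819 of the range, for Cdc14a in the vehicle group. An array below this limit can still decide a difference, as vehicle array 1 did for Ireb2 and vehicle array 4 for Exoc6.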

How the results depend on the processing

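Between eltrombopag and vehicle, 0 genes and 0 of the 10 iron genes were called in all 19 other settings, with a smallest adjusted p of 0.922 in limma for any gene. With the replicate number as a block, the unadjusted p was under 0.05 for 904 genes (650 without it), and no call changed. Slc11a2, Slc40a1, Ireb2 and Aco1 kept their sign in all 19. Slc11a2 ran from 0.27 to 0.49, Slc40a1 from -0.55 to -0.30, Ireb2 from 0.020 to 0.42 and Aco1 from -0.23 to -0.018. Other differences turned sign, and the cause was not tested. Tfrc was -0.0011 with quantile normalization once more, -0.13 in numbers 3 and 4 only, -0.021 when arrays were weighted and -0.0075 after equal medians were set. Fth1 was -0.011 in numbers 1 and 2 only and -0.0034 after equal medians were set. Ftl1 was 0.0095 without both arrays numbered 3, 0.0010 in numbers 1 and 2 only and 9.9e-05 with quantile normalization once more. In numbers 1 and 2 only, Steap3 was -0.12, Hamp -0.014 and Rab12 0.16. Without both arrays numbered 3, Steap3 was -0.077 and Rab12 0.099. In numbers 3 and 4 only, Tfr2 was 0.039 and Epas1 0.13. Leaving out 1 array in turn gave -0.081 to 0.070 for Tfrc, -0.17 to 0.036 for Tfr2, -0.041 to 0.037 for Fth1, -0.016 to 0.022 for Ftl1, -0.086 to 0.0048 for Ncoa4, -0.064 to 0.14 for Steap3 and -0.14 to 0.057 for Epas1. Across replicate numbers, 0 of the 10 iron genes were called in all 8 other settings. The count of all genes called, 41, was 198 with trend and robust moderation, and 12, 10, 2 and 13 without both arrays numbered 1, 2, 3 and 4. The likeness of a gene to Tfrc, Slc11a2 or Slc40a1 was recomputed in settings chosen after seeing the data, and its lowest value was 0.82, for Dpy19l2 with Slc11a2.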

Other observations

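Of the 71 further iron genes, 0 passed across replicate numbers and 8 had an unadjusted p under 0.05, where the share over all genes was 10.2%. The genes named here were picked with their values known. Alas2, the first enzyme of heme synthesis in erythroid cells, had log2 values of 7.70, 7.51, 9.30 and 8.95 in eltrombopag arrays 1 to 4, against 7.87, 8.03, 8.91 and 8.85 in vehicle arrays 1 to 4. Both arrays numbered 3 and both numbered 4 thus lay above all arrays numbered 1 and 2, as for Slc40a1. These sets of numbers, chosen after the principal component was seen, stood apart in either direction for 7.24% of all genes. The unadjusted p of Alas2 across numbers was 0.000528 and its adjusted p 0.117 in limma. Lcn2, the secreted lipocalin that binds siderophores, had 8.12, 7.86, 8.78 and 8.40 in eltrombopag arrays 1 to 4, against 7.68, 7.69, 8.81 and 8.42 in vehicle arrays 1 to 4, with an adjusted p across numbers of 0.161 in limma. Id1, a target of BMP signalling, ran the other way, with 9.46, 9.51, 9.14 and 8.90 in eltrombopag arrays 1 to 4 and 9.77, 9.53, 8.93 and 8.77 in vehicle arrays 1 to 4 (adjusted p 0.290 in limma).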
